A study of Homo sapiens with 6 samples.

Results

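The far-upstream-element binding proteins FUBP1, FUBP3 and KHSRP (also called FUBP2) and their partner PUF60 were followed in HCT116 cells, an established human colorectal carcinoma line, before and after induction of a short hairpin RNA against CAPG, an actin filament capping protein. These 4 genes were 4 of the 60643 rows of the expression table, each symbol occurred once, and all 4 were among the 14475 genes tested. They were chosen by name with the result of this comparison known, because FUBP3 had one of the strongest decreases. The values of the 4 genes are therefore a description. No p-value is given for them. Their side of the threshold in the fit over all genes is given by name and count, and nothing is read from it.

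All 6 libraries came from cells transfected with the inducible hairpin construct shCAPG, and all their value columns are labelled shCAPG-2. In 3 libraries, labelled as genotype WT and untreated, doxycycline was not added. In the other 3, labelled CAPG Knockdown, doxycycline was given at 100 ng/µl (the unit in the labels) for 3 days. The labels do not say whether replicates were cultured separately, so the spread behind each p-value may be that of repeat preparations only. Libraries with a control hairpin, with another hairpin against CAPG, or with doxycycline and no hairpin, were not analysed here. The drug, the knockdown and any other effect of the hairpin therefore cannot be told apart. The sources used here do not say whether the cells were a single clone or a pool.

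FUBP proteins bind single-stranded DNA and RNA through KH domains, small folds that grip a few unpaired bases. FUBP1 was named for the far upstream element of MYC, a stretch that melts during transcription, where FUBP1 stimulates the general transcription factor TFIIH and PUF60 (also called FIR, FBP-interacting repressor) opposes it. KHSRP binds AU-rich elements in mRNAs and recruits decay enzymes, and it also promotes maturation of some microRNA precursors. PUF60 has a further role in recognition of the 3′ splice site together with the U2AF splicing factors, and FUBP3 is the least studied of the family.

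Promoter sequences were found for 2 of the 4 genes, FUBP3 and KHSRP, in RefSeq (GRCh38.p14). No promoter entry was found for FUBP1 or PUF60, so only FUBP3 and KHSRP are shown. Each line gives the 250 bases before the RefSeq start of the gene, 5′ to 3′ on the strand of the gene, chr9:130579327-130579576 (plus strand) for FUBP3 and chr19:6424812-6425061 (minus strand) for KHSRP. The locus of FUBP3 in the expression table (130578965 to 130638352) starts before its RefSeq start, so the FUBP3 window lies inside that locus. Capitals mark 4 motifs searched on both strands: the E-box CACGTG, the site class of MYC and other basic helix-loop-helix factors, the ETS-type motif CCGGAAGT, the GC box GGGCGG (reverse complement CCGCCC) and the CCAAT box CCAAT (reverse complement ATTGG). No 2 matches overlapped.
FUBP3: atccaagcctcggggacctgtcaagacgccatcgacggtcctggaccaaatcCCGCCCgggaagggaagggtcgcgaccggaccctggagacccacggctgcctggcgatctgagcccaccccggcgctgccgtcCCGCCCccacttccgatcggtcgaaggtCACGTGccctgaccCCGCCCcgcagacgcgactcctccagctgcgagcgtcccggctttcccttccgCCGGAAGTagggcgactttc
KHSRP: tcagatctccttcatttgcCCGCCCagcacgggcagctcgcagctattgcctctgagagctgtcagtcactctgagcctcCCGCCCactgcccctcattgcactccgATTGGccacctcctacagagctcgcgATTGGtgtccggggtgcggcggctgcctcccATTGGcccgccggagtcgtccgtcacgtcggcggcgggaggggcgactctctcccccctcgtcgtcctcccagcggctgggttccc

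The FUBP3 window held 1 E-box, whose first base lay 87 bases before the RefSeq start, 1 ETS-type motif at 20 bases and 3 GC boxes. The KHSRP window held 2 GC boxes and 3 CCAAT boxes. Of 35116 promoter windows of the same length, 6.34% held the E-box, 3.42% the ETS-type motif, 42.6% the GC box and 32% the CCAAT box. These matches describe letters and not binding.

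Levels are in FPKM, that is, fragments divided by the length of the transcript and by the size of the library. Fragment totals, estimated from steps between low values, were 16900000 to 22000000 fragments per library. Of the low values behind that estimate, 81.4% to 83.4% lay within 0.05 of a whole fragment. The FPKM of all genes added up to 586911 in treated replicate 3, and to 521832 to 536037 in each of the other 5. CAPG, the gene targeted, was at 61.1, 56.9 and 53.7 FPKM without doxycycline and at 8.18, 8.03 and 9.97 FPKM with it. Of 10 colorectal epithelial markers 8 averaged at least 1 FPKM, with CDX1 listed at 0, and their sum was 1828 to 2057 FPKM without and 2004 to 2352 FPKM with doxycycline. Within that list EPCAM rose (190 ± 8.12 to 241 ± 20.0 FPKM, log2 0.34, limma adjusted p = 0.0401) and the transcription factor gene ELF3 fell (91.9 ± 5.18 to 60.7 ± 4.25 FPKM, log2 -0.59, limma adjusted p = 0.00612). Fibroblast markers summed to at most 11.3 FPKM (1 of 7 averaged at least 1 FPKM, COL1A2 and DCN listed at 0) and endothelial markers to at most 0.599 FPKM (0 of 5 averaged 1 FPKM). The sum of 8 leukocyte markers was 4.40 to 5.17 FPKM without and 2.59 to 2.77 FPKM with doxycycline. CD68, a lysosomal glycoprotein, made up most of that sum and fell (limma adjusted p = 0.0167), CD3E, CD3D and MS4A1 were listed at 0, and PTPRC, the common leukocyte antigen, reached at most 0.171 FPKM.

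FUBP3 (ENSG00000107164, chromosome 9, 130578965 to 130638352, GRCh38, plus strand) was much lower in every library with doxycycline. It was at 29.2, 28.1 and 32.5 FPKM in untreated replicates 1, 2 and 3 and at 12.6, 14.5 and 12.1 FPKM in treated replicates 1, 2 and 3. The groups did not overlap, and the lowest untreated library lay 13.7 FPKM above the highest treated one. The means were 29.9 ± 2.32 and 13.1 ± 1.24 FPKM (SD, n = 3 each), so 43.6% of the untreated level was left. On the log2(FPKM + 1) scale the difference was -1.14 (SE 0.10), the 13th lowest of the 14475 tested genes. Just beyond it in that order was MT2P1 (-1.27) and just short of it ATP6V0E1 (-1.12). MT2P1 was at 0, 20.8 and 40.9 FPKM without and at 0, 64.4 and 0 FPKM with doxycycline, so this order takes no account of spread. The values of FUBP3 correspond to about 1580 to 1810 fragments per untreated library and 737 to 895 per treated library, if all came from the longest coding transcript (3124 bases). Counting alone then gives an error of about 3.7% at the lowest count. In these bulk samples fewer cells with a transcript and less of it per cell cannot be told apart.

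FUBP1 (ENSG00000162613, chromosome 1, 77944055 to 77979110, minus strand), the family member named for the MYC far upstream element, was somewhat higher with doxycycline. Its values were 43.2, 43.4 and 42.5 FPKM without and 52.2, 56.5 and 46.9 FPKM with doxycycline. The untreated libraries were close together and the treated ones spread, and the groups stood 3.44 FPKM apart without overlapping. The means were 43.1 ± 0.468 and 51.8 ± 4.79 FPKM (SD, n = 3 each), a ratio of 1.20, with a difference of 0.26 (SE 0.09) on the log2(FPKM + 1) scale.

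KHSRP (ENSG00000088247, chromosome 19, 6413348 to 6424794, minus strand), the decay factor of the family, had much the same level in both groups. It was at 189, 176 and 149 FPKM without and at 174, 184 and 167 FPKM with doxycycline. All 3 treated values lay within the range of the untreated ones. The means were 171 ± 20.6 and 175 ± 8.33 FPKM (SD, n = 3 each), with a difference of 0.034 (SE 0.10) on the log2(FPKM + 1) scale. The sign depended on single libraries, with -0.063 without untreated replicate 3 and 0.11 without untreated replicate 1.

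PUF60 (ENSG00000179950, chromosome 8, 143816344 to 143829352, minus strand), the repressor of the FUBP1 step and a splicing factor, was higher in every treated library. It was at 74.8, 68.1 and 61.7 FPKM without and at 95.9, 99.5 and 112 FPKM with doxycycline. The groups did not overlap and stood 21.1 FPKM apart. Treated replicate 3, the library with the largest summed FPKM, had the highest value. In that library FUBP3, FUBP1 and KHSRP each had their lowest treated value. The means were 68.2 ± 6.56 and 103 ± 8.72 FPKM (SD, n = 3 each), a ratio of 1.51, and the log2(FPKM + 1) difference of 0.58 (SE 0.10) ranked 181st from the highest of the 14475 tested genes. Without treated replicate 3 the difference was 0.52.

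**Figure D1:**
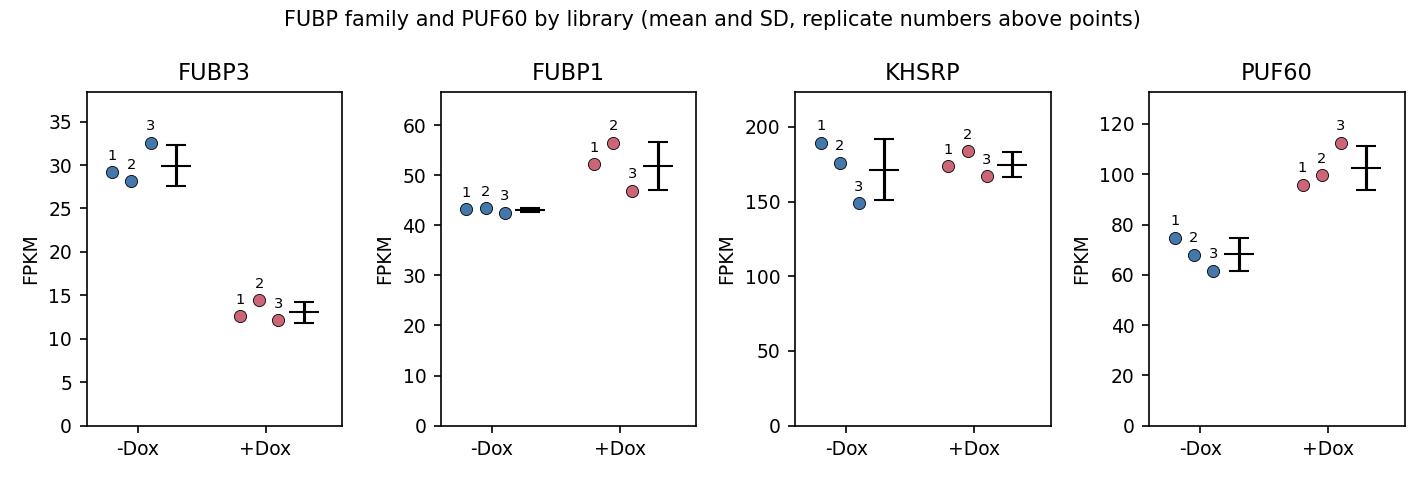
FPKM of FUBP3, FUBP1, KHSRP and PUF60 in each library without (-Dox) and with (+Dox) doxycycline; points are libraries with their replicate number, and the bar to the right of each group is the mean with its SD (n = 3). FUBP3 sits at 28.1 to 32.5 FPKM without and 12.1 to 14.5 FPKM with doxycycline, PUF60 goes the other way, and the KHSRP groups overlap.

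Among the 4 genes the groups did not overlap in 3, where 34.5% of all tested genes had groups that did not overlap. In the fit over all genes (limma, threshold of 0.05 on the adjusted p), 2 of the 4 were past the threshold, FUBP3 on the lower and PUF60 on the higher side, against 8.46% of all tested genes (3.69% higher, 4.77% lower). Nothing is read from these counts, since the genes were chosen with this comparison known. PUF60 was not past the threshold without untreated replicate 2, where 1 of the 4 genes was, and FUBP1 joined when treated replicate 3 was left out, where 3 were.

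**Figure D2:**
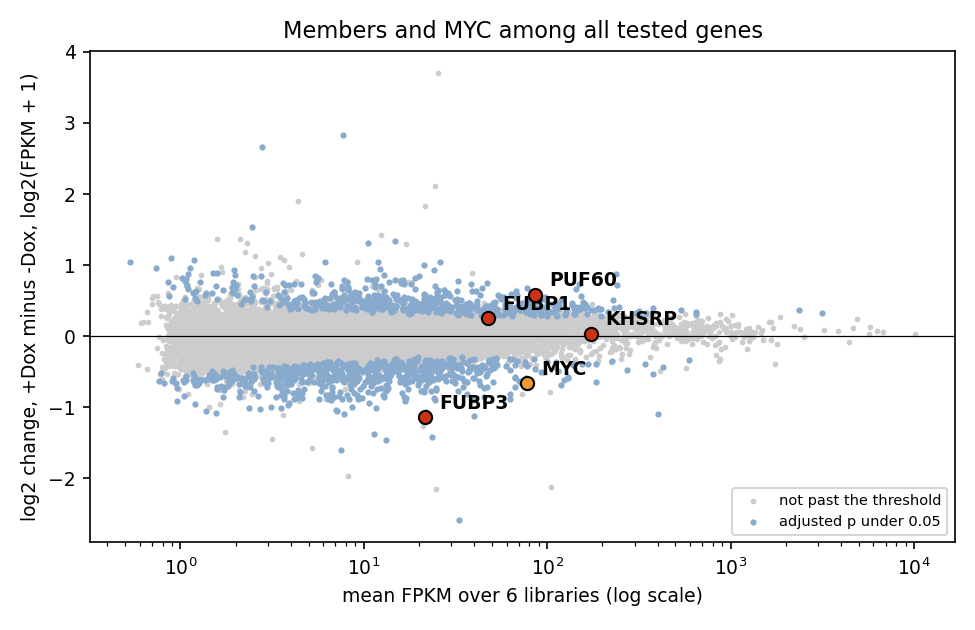
Log2 change on the log2(FPKM + 1) scale (y axis) against the mean FPKM over 6 libraries (x axis, log scale) for 14475 tested genes; blue points have a limma adjusted p under 0.05, red points are FUBP3, FUBP1, KHSRP and PUF60, and the orange point is MYC. FUBP3 lies near the lower edge at -1.14 and PUF60 at 0.58, with KHSRP on the zero line.

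The order of the levels was the same in both groups: KHSRP was the most abundant, followed by PUF60, FUBP1 and FUBP3. FPKM is scaled by transcript length, so levels can be set side by side. Neighbours in this order did not overlap in any pair of libraries of the same group. FUBP3 had a higher mean than 79.9% of the tested genes without doxycycline and than 57.7% with it. FUBP1 stood above 86.2% and 88.4% of the tested genes, PUF60 above 92.0% and 94.6% and KHSRP above 97.0% and 96.8%.

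The pool of FUBP transcripts had a like size and a different make-up in the 2 groups. The summed level of FUBP1, FUBP3 and KHSRP was 224 to 262 FPKM without and 226 to 254 FPKM with doxycycline, and these ranges overlapped. FUBP3 made up 11.2%, 11.4% and 14.5% of that sum in untreated replicates 1, 2 and 3 and 5.28%, 5.68% and 5.36% in treated replicates 1, 2 and 3. FUBP1 went from 16.5% to 19.0% of the sum without doxycycline to 20.7% to 22.2% with it. KHSRP held most of the sum in both groups, 66.5% to 72.3% and 72.1% to 73.9%. The ratio of FUBP3 to FUBP1 was 0.647 to 0.765 without and 0.241 to 0.259 with doxycycline. The ratio of PUF60 to FUBP1, the antagonists at the MYC far upstream element, was 1.73, 1.57 and 1.45 without and 1.84, 1.76 and 2.40 with doxycycline. The lowest treated ratio was close to the highest untreated one, and treated replicate 3 stood above the other libraries. Because FUBP3 and PUF60 differ between the groups by choice of the genes, these ratios carry no test either.

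**Figure D3:**
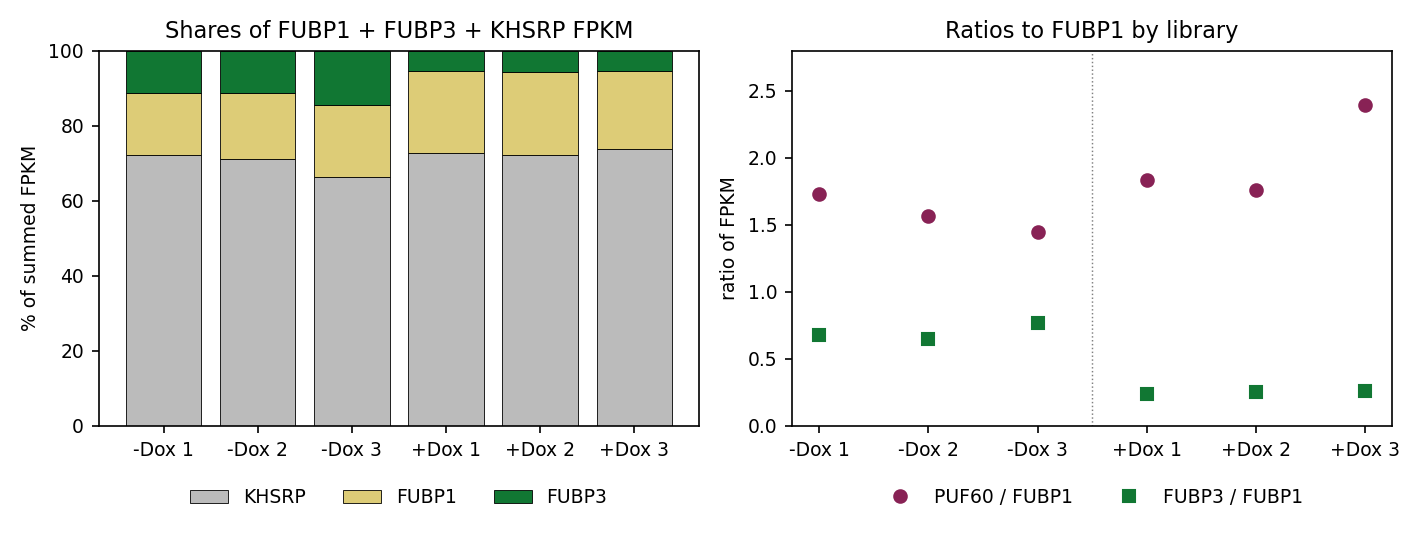
Left, shares (in %) of KHSRP, FUBP1 and FUBP3 in their summed FPKM for each library; right, the ratios of PUF60 to FUBP1 (circles) and of FUBP3 to FUBP1 (squares) in each library. The FUBP3 share is 11.2% to 14.5% without and 5.28% to 5.68% with doxycycline, and the PUF60 to FUBP1 ratio is highest in treated replicate 3 at 2.40.

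Stretches that the 4 genes share with each other were short. The longest identical stretch between any FUBP3 transcript and any FUBP1, KHSRP or PUF60 transcript in GENCODE 29 was 17, 20 and 14 bases. KHSRP has a processed copy, KHSRPP1 (chromosome 9, 21695176 to 21696943), which matched the longest KHSRP coding transcript at 85.1% of its bases and shared a stretch of 91 identical bases with KHSRP. KHSRPP1 was at 4.50 ± 0.0946 FPKM without and 4.78 ± 0.683 FPKM with doxycycline (SD, n = 3 each), with a limma adjusted p of 0.744, and its value is uncertain because reads can be shared with KHSRP. Of the other rows, the microRNA genes MIR6856 and MIR3940 lie within FUBP3 and KHSRP, and both were listed at 0 in all 6 libraries.

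The nearest tested protein-coding or named genes on the chromosome, ordered by gene midpoint, did not all follow the 4 genes. EXOSC2, a subunit of the RNA exosome that lies 55368 bases beyond FUBP3, was at 29.7, 31.2 and 29.4 FPKM without and at 20.9, 21.3 and 19.8 FPKM with doxycycline. It fell (log2 -0.52, SE 0.08, limma adjusted p = 0.00732; 0.0516 without untreated replicate 2, and 0.00376 to 0.0516 over all alternatives). The argininosuccinate synthase gene ASS1, 77690 bases to the other side of FUBP3, was at 31.6 ± 2.92 and 31.8 ± 3.72 FPKM (SD, n = 3 each; limma adjusted p = 0.976).

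DNAJB4, an HSP40-type co-chaperone gene, starts 64 bases from FUBP1 on the opposite strand. It was at 30.2, 30.3 and 32.9 FPKM without and at 42.1, 48.9 and 40.2 FPKM with doxycycline, and the groups did not overlap. It rose (log2 0.47, SE 0.09, limma adjusted p = 0.0203), and missed the threshold at a like size without untreated replicate 1, untreated replicate 2 or treated replicate 2 (log2 0.45, 0.45 and 0.39; adjusted p 0.0117 to 0.0909 over all alternatives). MIGA1, a mitochondrial fusion regulator on the other side of FUBP1, was at 3.88 ± 0.650 and 3.78 ± 0.334 FPKM (SD, n = 3 each; limma adjusted p = 0.933).

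Next to KHSRP, the mitochondrial carrier gene SLC25A23 fell from 22.7 ± 3.34 to 14.8 ± 1.10 FPKM (SD, n = 3 each; log2 -0.57, limma adjusted p = 0.0208). It missed the threshold when replicate 1 or 2 of either group was left out (0.0114 to 0.101 over all alternatives). GTF2F1, a subunit of the general transcription factor TFIIF, was at 46.5 ± 3.85 and 46.1 ± 2.67 FPKM (limma adjusted p = 0.943). Next to PUF60, the polarity gene SCRIB, 570 bases away, was at 36.0 ± 7.05 and 41.7 ± 3.59 FPKM (limma adjusted p = 0.33) and NRBP2 at 5.01 ± 0.907 and 3.32 ± 0.411 FPKM (limma adjusted p = 0.0597).

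**Figure D4:**
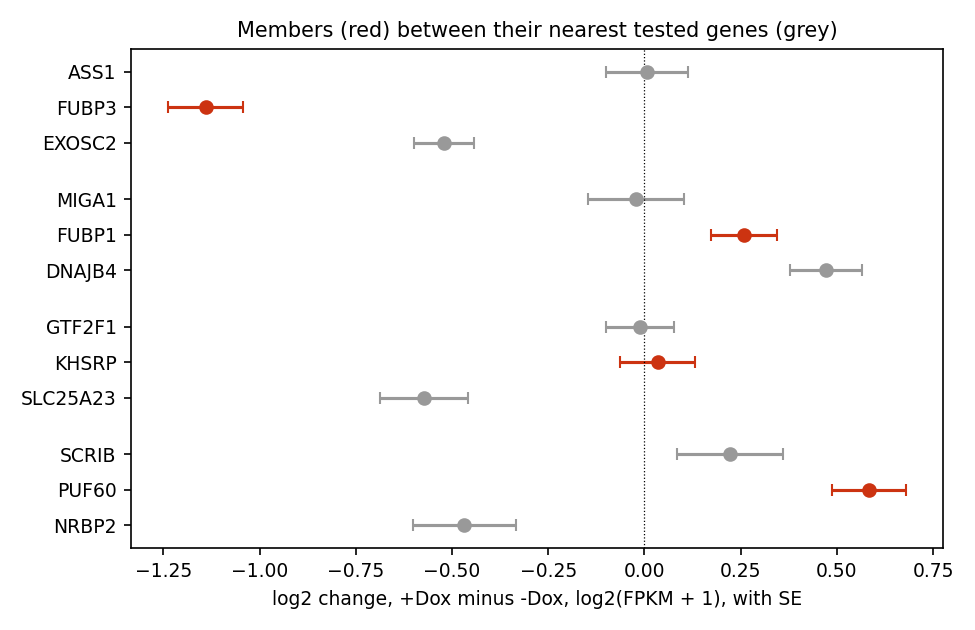
Log2 change on the log2(FPKM + 1) scale with its SE for FUBP3, FUBP1, KHSRP and PUF60 (red) and for the nearest tested protein-coding or named gene on each side (grey), in chromosome order. EXOSC2 and FUBP3 are both below 0, DNAJB4 and FUBP1 are both above 0, and the other side of each pair, ASS1 and MIGA1, is close to 0. Beside KHSRP (0.034), SLC25A23 lies at -0.57 and GTF2F1 at -0.013. Beside PUF60 (0.58), NRBP2 lies at -0.47 and SCRIB at 0.22.

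The profile of FUBP3 over the 6 libraries was most like that of SLC17A5, the lysosomal sialic acid exporter gene. Likeness was the root mean square difference in log2(FPKM + 1) after each gene's mean was taken off, over 9990 candidate genes with a mean of at least 5 FPKM. It was 0.0996 for SLC17A5, against a median of 0.601 over the candidates. SLC17A5 was at 15.9, 15.1 and 16.9 FPKM without and at 7.40, 7.48 and 7.46 FPKM with doxycycline. Others among the 5 most alike were ERVMER34-1, an endogenous retroviral envelope gene (0.142), SFT2D2 (0.153) and CD24, a surface glycoprotein gene (0.156). These genes share the direction of FUBP3 because likeness selects for it.

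MYC (ENSG00000136997), the gene whose promoter gave the family its name, was lower with doxycycline. It was at 99.6, 94.5 and 91.8 FPKM without and at 58.8, 57.1 and 64.3 FPKM with doxycycline, and the groups did not overlap. It fell to 63.0% of its level (log2 -0.66, SE 0.08, limma adjusted p = 0.00302) and stayed past the threshold under all 12 alternatives (0.00107 to 0.0324). Of 33 tested genes widely used as MYC-induced, limma called 0 higher and 1 lower, or 3.03% against 8.46% of all tested genes. An unadjusted p under 0.05 (4036 of all 14475 tested genes) was reached by 4 on the higher and 3 on the lower side. The median log2 change of that list was 0.041, and that of all tested genes was -0.0026. The gene that fell was the cell cycle transcription factor gene E2F2 (8.34 ± 0.535 to 5.07 ± 0.190 FPKM, log2 -0.62, limma adjusted p = 0.00786), which lost the call without untreated replicate 2 (0.00432 to 0.0525 over all alternatives). Without treated replicate 3, 2 of the MYC-induced genes were called lower.

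TFIIH, the complex on which FUBP1 and PUF60 act, was part of a list of 24 tested genes with MYC, its dimer partners and other MYC promoter-binding proteins. Limma called 0 of these higher and 2 lower, or 8.33% against 8.46% of all tested genes. An unadjusted p under 0.05 (4036 of all 14475 tested genes) was reached by 2 on the higher and 5 on the lower side. The 2 that fell were MYC and MXD1, a competitor of MYC for the partner MAX (4.11 ± 0.306 to 2.68 ± 0.354 FPKM, log2 -0.48, limma adjusted p = 0.0377). MXD1 missed the threshold whichever library was left out (0.0372 to 0.116 over all alternatives), and 1 gene of the list was called higher without untreated replicate 1. Over the whole list the log2 changes had a median of 0.00036.

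KH-domain proteins outside the family were mixed. Of 29 tested, 1 rose and 3 fell by limma, with a median log2 change of -0.044, and 25 did not pass the test. The share called was 13.8%, against 8.46% of all tested genes. The 1 that rose was KHDC4, a splicing-associated KH protein (30.5 ± 0.305 to 40.5 ± 0.454 FPKM, SD, n = 3 each; log2 0.40, limma adjusted p = 0.0155). The 3 that fell were TDRKH, a Tudor and KH protein of the piRNA pathway (4.79 to 2.77 FPKM, log2 -0.63, limma adjusted p = 0.0156), MEX3A, a KH and RING-finger protein (5.72 to 4.01 FPKM, log2 -0.42, 0.0308), and IGF2BP3, an oncofetal mRNA-binding protein (77.1 to 60.3 FPKM, log2 -0.35, 0.0398). These calls depended on single libraries. Genes of this list called lower numbered 0 without untreated replicate 1, untreated replicate 2 or treated replicate 2 and 1 without any other library, and KHDC4 lost its call without untreated replicate 2 or treated replicate 2. Over all alternatives the limma adjusted p was 0.0103 to 0.088 for KHDC4, 0.0135 to 0.069 for TDRKH, 0.0244 to 0.139 for MEX3A and 0.0286 to 0.146 for IGF2BP3.

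Proteins that share with KHSRP the binding of AU-rich elements or the decay step moved in both directions. Of 35 tested, 2 rose and 2 fell by limma, with a median log2 change of 0.033, and 11.4% were called, where 8.46% of all tested genes were. ZFP36 (tristetraprolin, a decay-promoting zinc finger protein) rose from 21.2 ± 2.25 to 33.8 ± 1.28 FPKM (SD, n = 3 each; log2 0.65, limma adjusted p = 0.00617), while its paralog ZFP36L1 fell from 113 ± 5.56 to 87.4 ± 0.654 FPKM (log2 -0.36, limma adjusted p = 0.0214). HNRNPDL, an AUF1-like RNA-binding protein, rose from 157 ± 1.87 to 204 ± 16.1 FPKM (log2 0.37, limma adjusted p = 0.0261), and the exosome subunit EXOSC2, the FUBP3 neighbour, was the other gene that fell. Without untreated replicate 2 only ZFP36 was called in this list, where calls over all genes numbered 76 higher and 147 lower. Genes called higher numbered 1 without any of the other libraries except treated replicate 3, and genes called lower numbered 1 without untreated replicate 1, treated replicate 1 or treated replicate 2. Over all alternatives the limma adjusted p was 0.00245 to 0.0516 for ZFP36, 0.0146 to 0.088 for ZFP36L1 and 0.0178 to 0.115 for HNRNPDL.

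Transcripts described in earlier work as bound or regulated by FUBP1, FUBP3 or KHSRP numbered 14 among the tested genes. Limma called 5 of these higher and 1 lower, or 42.9% against 8.46% of all tested genes (3.69% higher, 4.77% lower). Their median log2 change was 0.24. An unadjusted p under 0.05 (4036 of all 14475 tested genes) was reached by 8 on the higher and 1 on the lower side. IER3, an immediate early gene, was at 173, 157 and 173 FPKM without and at 292, 276 and 358 FPKM with doxycycline and rose (log2 0.87, SE 0.11, limma adjusted p = 0.00304), also under all 12 alternatives (9.3e-04 to 0.0417). CDKN1B, which encodes the cell cycle inhibitor p27, rose from 16.8 ± 0.454 to 23.3 ± 0.462 FPKM (SD, n = 3 each; log2 0.45, limma adjusted p = 0.0129), and the AP-1 subunit gene JUN from 9.47 ± 0.822 to 13.6 ± 0.741 FPKM (log2 0.48, limma adjusted p = 0.0212). The others that rose, named after their values were seen, were the stress factor gene ATF3 (log2 0.42, limma adjusted p = 0.03) and the chemokine gene CXCL8, from a low level (0.896 to 1.83 FPKM, log2 0.58, limma adjusted p = 0.0439). The 1 that fell was MYC. CDKN1B (0.00833 to 0.0766 over all alternatives), JUN (0.0132 to 0.0913), ATF3 (0.0199 to 0.108) and CXCL8 (0.0387 to 0.153) each missed the limma threshold without untreated replicate 2 or treated replicate 2. JUN also missed it without untreated replicate 3 or treated replicate 1. With a library left out, ATF3 passed it only without treated replicate 1, and CXCL8 missed it whichever library was left out. Genes called higher in this list numbered 3, 1 and 2 without untreated replicates 1, 2 and 3, and 3, 1 and 5 without treated replicates 1, 2 and 3. In the same order, genes called higher among all tested genes numbered 231, 76 and 231, and 267, 142 and 412. The list was written with earlier results of these data known, in which genes of the stress response were higher, and is no independent evidence of a direction.

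Factors of branch point and 3′ splice site recognition, the splicing step in which PUF60 takes part, numbered 30 among the tested genes. Limma called 0 of them higher and 1 lower, or 3.33% against 8.46% of all tested genes. An unadjusted p under 0.05 (4036 of all 14475 tested genes) was reached by 4 on the higher and 2 on the lower side. Their median log2 change was 0.040, and the highest value was 0.38. Genes called lower numbered 0 when any library other than treated replicate 3 was left out. Calls over all genes also became fewer whichever library was left out. Without treated replicate 3, 1 gene of this list was called higher and 1 lower.

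**Figure D5:**
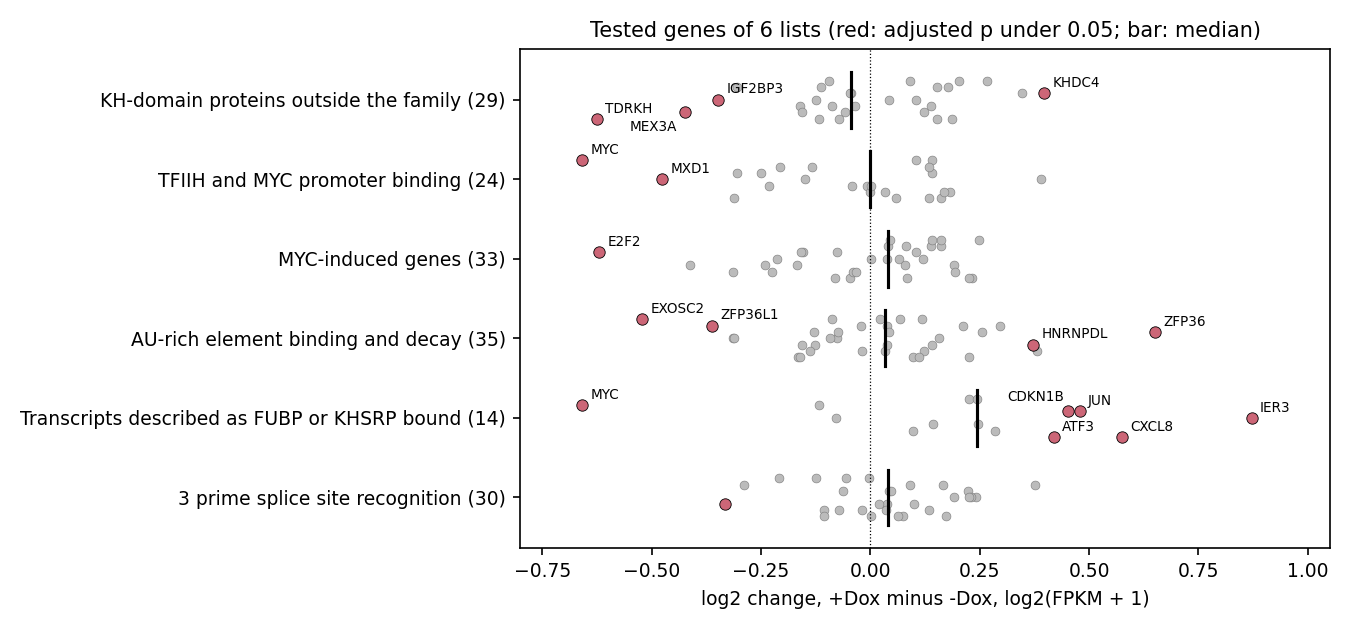
Log2 change on the log2(FPKM + 1) scale (x axis) of each tested gene in 6 lists (rows, with the number tested); red points have a limma adjusted p under 0.05 and are named in all lists except the last, grey points do not, and the vertical bar is the median of the list. Medians of 5 lists lie between -0.044 and 0.041, and that of transcripts described as FUBP or KHSRP bound lies at 0.24.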

How the data were processed

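Gene expression was measured by RNA sequencing in 6 libraries. The authors deposited 1 table of values, treated here as FPKM from how they behave, since its header names no unit. Per the submitters' processing notes, Bowtie, BWA, STAR, Cufflinks, RSEM and kallisto and the build hg19 were named, without roles. The loci in the table are GRCh38 with starts counted from 0 (44975 of 58425 identifiers shared with GENCODE 29, versions ignored, had its locus after 1 was added). FPKM values are relative, so an abundant class of transcripts lowers all others.

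Depth was taken from 3991 single-exon genes longer than 1000 bases, as the fragment total and the length taken off each transcript (260 to 290 bases) that brought low values closest to whole fragments. The test, limma 3.58.1 (R 4.3.3; trended, robust empirical Bayes, group as the only term), was run on log2(FPKM + 1) for the 14475 genes that reached 1 FPKM in 3 or more libraries. P-values are two-sided and Benjamini-Hochberg adjusted over all of them, with a threshold of 0.05. Data were simulated for this comparison over 14475 genes, with noise independent between genes and libraries. Each simulated set had 200 changed genes, and the changes were put on the log2(FPKM + 1) scale. The fit recovered 47.6% of genes changed 1.5-fold and 80% of those changed 2-fold, and called 0.0448% of unchanged genes. These rates need not hold for the real libraries, where 1225 genes were called.

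The members and the gene lists were chosen with earlier results of these data known. Genes named were CAPG, MYC, related rows, the nearest tested protein-coding or named gene on each side of a member, and the 5 profiles most like FUBP3. Other rows known only by a clone identifier were passed over as neighbours. Up to 4 genes past the threshold with the smallest p in each list (2 where none passed) were also named. MT2P1, ATP6V0E1, ATF3, CXCL8 and the cell type markers were named in addition. Results of some genes named by this rule are not reported here. Alternatives were a pseudocount of 0.1, other filters, median-of-ratios scaling, plain empirical Bayes, a replicate block and leaving out each library.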

Additional observations from a re-analysis of the deposited data

How the results depend on the processing

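The log2 change of FUBP3 lay between -1.21 and -1.08 when single libraries were left out, that of PUF60 between 0.51 and 0.65, that of FUBP1 between 0.20 and 0.33 and that of KHSRP between -0.063 and 0.11. A pseudocount of 0.1 and median-of-ratios scaling moved none of the 4 by as much as the spread between libraries (FUBP3 to -1.19 and -1.14). The other filters, plain empirical Bayes and the replicate block leave the log2 change of a gene as it is. They therefore could not move it. Of these 4 genes, 1 was past the threshold with no filter (FUBP3) and 1 with the replicate block (FUBP3). When a library was left out, 1 to 3 were. Nothing is read from these counts either, since FUBP3 was chosen for its fall in this comparison. Over all genes, calls numbered 53 higher and 100 lower with no filter on low values, where 32367 genes were tested, 69 and 142 with the replicate block, and 354 higher with plain empirical Bayes; without single libraries they ranged from 76 to 412 higher and from 147 to 588 lower. The cause of these shifts was not tested. Same-numbered libraries did not deviate together (correlations of -0.043, 0.0094 and -0.023), so the block follows a shared number only.

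With no filter, genes called higher and lower numbered 0 and 0 for other KH proteins, 0 and 1 for AU-rich element proteins, 2 higher for FUBP or KHSRP bound transcripts, 1 lower for the TFIIH list and 0 lower for splice site factors. With the replicate block they numbered 0 and 0, 1 and 1, 1 higher, 1 lower and 0 lower in the same order, and 0 lower for MYC-induced genes. A filter of 5 FPKM gave 1 higher and 1 lower in the TFIIH list and 1 higher among splice site factors, as did median-of-ratios scaling for the latter. Without single libraries the ranges were 0 to 1 higher and 0 to 1 lower for KH proteins, TFIIH genes 0 to 1 and 1 to 1, MYC-induced genes 0 to 2 lower, AU-rich element proteins 1 to 2 and 0 to 2, bound transcripts 1 to 5 higher, and splice site factors 0 to 1 in each direction. Among genes that were not called, the sign also depended on single libraries for KHSRPP1 (-0.018 to 0.15), ASS1 (-0.080 to 0.080), MIGA1 (-0.11 to 0.080) and GTF2F1 (-0.075 to 0.042).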
